A study of Arundo donax with 9 samples.

Results

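Leaves of giant cane (Arundo donax, a perennial rhizomatous grass grown for biomass) under extreme salt stress (G2-S4) were compared with leaves under severe salt stress (G2-S3), that is, the highest with the next lower salt dose of the series. The 6 libraries compared are the ones labelled with these treatments, 3 per dose, out of 9 libraries in the series. The other 3 are control leaves without added salt (G2-CK), which are given as levels only. Expression was described across all proteins that the annotation names: the unigenes (transcript clusters of a de novo assembly, which stand in for genes in a species without a reference genome) that share a Swiss-Prot protein name were summed. Unigenes whose nucleotide description named human sequence were left out. Of 255855 unigenes listed, 99397 carried a protein name and were kept, under 13590 names with a median of 5 unigenes each. Of these names 13389 were listed in at least 1 of the 6 libraries, and 9827 passed the filter on low values and were tested.

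All groups are plants of a single clone, G2, raised from rhizomes in pots and irrigated weekly. By the labels, NaCl was given at 420 mM in G2-S4, 250 mM in G2-S3 and 0 mM in G2-CK. Salt was given from August to November, and the leaf sampled was the third from the top, fully expanded and without signs of senescence. Each dose had 3 biological replicates, so the differences below concern 1 genotype and 1 leaf position, and the replicate error is that within this clone.

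Salt in the root zone first withholds water from the shoot and then, as sodium and chloride build up in the leaf, poisons its metabolism. Leaves answer by closing stomata through abscisic acid, by moving sodium into the vacuole with the help of proton pumps, and by making compatible solutes such as proline and protective proteins such as dehydrins. When salt outruns these defences a leaf stops investing in photosynthesis, takes apart its chloroplasts and exports the nitrogen and carbon set free, a programme known as senescence. Giant cane fixes carbon directly with Rubisco, as rice and wheat do, and has no leaf anatomy of the kind that concentrates carbon dioxide in maize.

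The fitted totals behind the libraries were 22970882 to 24255096 reads in G2-S4, 23172138 to 23748001 reads in G2-S3 and 22906184 to 25529736 reads in G2-CK. Levels are given in CPM, read counts scaled to a common fitted total. Most reads that carry a protein name do so through a best hit in another plant, 44.15% in Arabidopsis thaliana and 23.58% in rice, so a name stands for the closest described protein and not for an identified giant cane gene. A unigene is listed in a library only above 0.3 FPKM, and a name whose unigenes are all unlisted is written as 0 CPM although it is only known to lie below that limit. On the log2 CPM scale a G2-S4 library lay 0.664 to 0.812 from a G2-S3 library (root mean square over names), against 0.286 to 0.392 within G2-S4 and 0.269 to 0.501 within G2-S3. G2-S3 replicate 3 stood apart. It lay nearer to the control libraries (mean 0.482) than replicates 1 (0.633) and 2 (0.713) did, and it was the lowest of the 3 G2-S3 libraries for 54.5% of the names called higher in G2-S4 and the highest for 49.3% of the names called lower. Reads on unigenes described as human made up 0.138%, 0.0814% and 0.0445% of the listed reads in the 3 G2-S4 libraries and at most 0.00021% elsewhere, and these unigenes were left out of every sum.

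Of the 9827 protein names tested, 3710 (37.8%) were called at an adjusted p under 0.05, 1751 (17.8%) higher and 1959 (19.9%) lower in G2-S4 than in G2-S3. Most of these differences were moderate. At least 2-fold higher were 377 names and at least 2-fold lower 382, while 89 and 67 passed 4-fold. The median log2 fold change over all names was -0.01 and the median standard error 0.116. The 3 G2-S4 libraries lay all above or all below the 3 G2-S3 libraries for 50.0% of the names tested. These shares are the background against which the counts for each group of proteins below are to be read. Unigenes are called separated below where the doses did not overlap. Such counts are given for a few names only, describe the parts of a name's sum and are no further support for it. Their share over all unigenes was not computed. Leaving out 1 library at a time gave between 2759 (without G2-S4 replicate 2) and 3473 (without G2-S3 replicate 3) calls, and 2350 names kept their call whichever library was left out. Values given below as without a replicate leave out 1 library at a time, and are given where a call was lost or gained or a fold or count moved by more than 1.5 times.

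**Figure D1:**
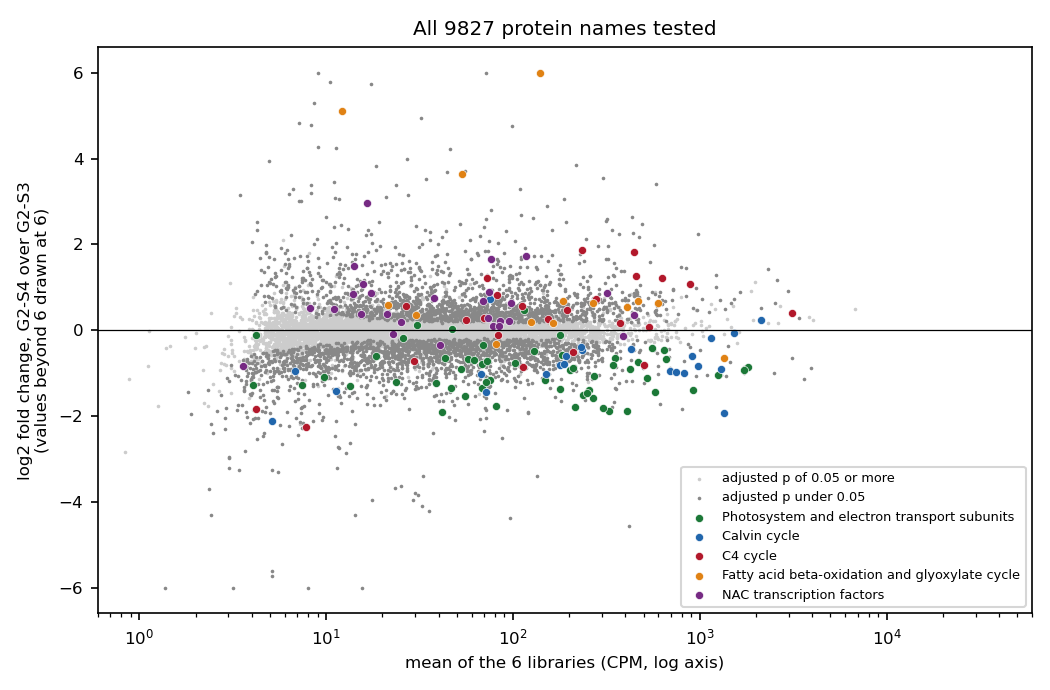
Log2 fold change of G2-S4 over G2-S3 (vertical axis) against mean level over the 6 libraries in CPM (horizontal log axis) for the 9827 protein names tested, with 5 groups of proteins in colour; values beyond 6 in size are drawn at the edge. Photosystem and Calvin cycle names lie below 0 with few exceptions, and reach to the names with the most reads.

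The largest changes were ranked among called names averaging at least 20 CPM over the 6 libraries and without overlap between the doses. Isocitrate lyase and aromatic-L-amino-acid decarboxylase had the largest increases, and both were at or near the limit of detection in G2-S3 leaves. Isocitrate lyase, the entry enzyme of the glyoxylate cycle by which seedlings and senescing leaves turn fat into sugar, stood at 341, 418 and 79.2 CPM in G2-S4 and was listed in no G2-S3 or G2-CK library. Its mean was at least 164-fold the limit of 1.70 CPM in G2-S3 (adjusted p = 0.00142), although replicate 3 held far fewer reads than the other two G2-S4 libraries. Malate synthase, the partner enzyme of the same cycle, rose with it (92.1, 114 and 89.8 CPM in G2-S4, against 9.13, 9.95 and 4.58 CPM in G2-S3, log2 fold change 3.65 ± 0.28, adjusted p = 4.35e-05). Aromatic-L-amino-acid decarboxylase, which makes tryptamine from tryptophan, had 110.1, 169.6 and 148 CPM in G2-S4, against 0.815, 1.98 and 0 CPM in G2-S3. The log2 fold change was 7.24 ± 0.63 (adjusted p = 7.53e-05), and 8.43 with adjusted p = 0.000145 without replicate 2 of G2-S3. Tryptamine hydroxycinnamoyltransferase 2, which joins tryptamine to a cinnamic acid and so stands one step further on the same path in rice, was higher as well (555, 404 and 265 CPM in G2-S4, against 28.9, 20.7 and 35.8 CPM in G2-S3, log2 fold change 3.84 ± 0.31, adjusted p = 4.69e-05), and all 10 of its unigenes above 1 CPM were separated in this direction.

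Stress proteins, proteases and an enzyme of nitrogen transport made up most of the other large increases. Dehydrin DHN1, a hydrophilic protein of drying tissues, stood at 97.8, 50.6 and 38.2 CPM in G2-S4, against 1.89, 2.15 and 2.01 CPM in G2-S3 (log2 fold change 4.94 ± 0.42, adjusted p = 6.23e-05), and late embryogenesis abundant protein 31 at 109, 59.3 and 79.0 CPM in G2-S4, against 8.10, 5.65 and 5.35 CPM in G2-S3 (log2 fold change 3.69 ± 0.28, adjusted p = 4.35e-05). Both were low in every G2-S3 library. Asparagine synthetase, which loads nitrogen onto asparagine for transport, had 323, 145 and 105 CPM in G2-S4, against 8.06, 8.56 and 4.58 CPM in G2-S3 (log2 fold change 4.76 ± 0.47, adjusted p = 0.000128). Replicate 1 was the highest of the G2-S4 libraries, and the log2 fold change was 4.15 with adjusted p = 0.000169 without replicate 1 of G2-S4. Of the 6 asparagine synthetase unigenes above 1 CPM, 4 had the higher mean in G2-S4 and 2 the lower. Among them 3 were separated upward and 1 downward. FTSH 6, a metalloprotease of the plastid, was even over the replicates at 96.7, 80.9 and 86.2 CPM in G2-S4, against 3.60, 4.01 and 6.42 CPM in G2-S3 (log2 fold change 4.23 ± 0.22, adjusted p = 1.05e-05). The probable aspartyl protease At4g16563 had 59.5, 99.5 and 151 CPM in G2-S4, against 8.06, 11.98 and 3.64 CPM in G2-S3 (log2 fold change 3.71 ± 0.44, adjusted p = 0.000333). Beta-glucosidase 18, one of the enzymes that free glucose from conjugates, spread widely within G2-S4 (91.8, 50.7 and 10.6 CPM in G2-S4, against 1.80, 2.61 and 5.18 CPM in G2-S3, log2 fold change 3.99 ± 0.71, adjusted p = 0.00255, and 3.26 with adjusted p = 0.0068 without replicate 1 of G2-S4).

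Enzymes of terpene and indole metabolism, lipases, storage proteins and glucan or chitin hydrolases made up most of the largest decreases under the same rule. Names whose doses overlap, such as Laccase-10 below, are left out by it. Alpha-terpineol synthase, a plastid enzyme that makes monoterpene scent, had the steepest decrease among them, with 56.6, 29.4 and 16.0 CPM in G2-S4, against 868, 502 and 1043 CPM in G2-S3 and 1425, 1651 and 1313 CPM in G2-CK (log2 fold change -4.56 ± 0.46, adjusted p = 0.000148). A single unigene carries this name. Probable phospholipase A2 homolog 2, which splits membrane lipids, was even over the replicates, at 3.49, 3.42 and 3.25 CPM in G2-S4, against 39.7, 43.0 and 46.8 CPM in G2-S3 (log2 fold change -3.67 ± 0.10, adjusted p = 2.84e-07). Acetylserotonin O-methyltransferase 3, of the family that makes melatonin in rice, had 4.74, 2.89 and 2.84 CPM in G2-S4, against 39.3, 47.8 and 76.8 CPM in G2-S3 (log2 fold change -3.97 ± 0.29, adjusted p = 3.64e-05). Lichenase-2, a wall glucanase, fell by 4.37 ± 0.73 on the log2 scale (adjusted p = 0.00183, and -5.29 with adjusted p = 0.00228 without replicate 1 of G2-S4), and Chitinase 11 fell by 2.50 ± 0.40 (adjusted p = 0.00145, and -3.17 with adjusted p = 0.000174 without replicate 3 of G2-S4). Bark storage protein A, a vegetative store of nitrogen in poplar, had 16.2, 13.4 and 40.6 CPM in G2-S4, against 233, 282 and 223 CPM in G2-S3, with G2-S4 replicate 3 above its fellows (log2 fold change -3.39 ± 0.44, adjusted p = 0.000502, and -4.05 with adjusted p = 0.000158 without replicate 3 of G2-S4). Stem 28 kDa glycoprotein, another vegetative storage protein, known from soybean, had 4.39, 3.11 and 3.78 CPM in G2-S4, against 56.7, 65.6 and 17.4 CPM in G2-S3 (log2 fold change -3.63 ± 0.47, adjusted p = 0.000501). The sugar exporter SWEET3a was lower at 16.3, 12.3 and 7.36 CPM in G2-S4, against 61.3, 68.4 and 58.5 CPM in G2-S3 (log2 fold change -2.39 ± 0.23, adjusted p = 0.000107). The GDSL lipases APG and At5g37690 complete the set with log2 fold changes of -3.79 and -3.403.

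**Figure D2:**
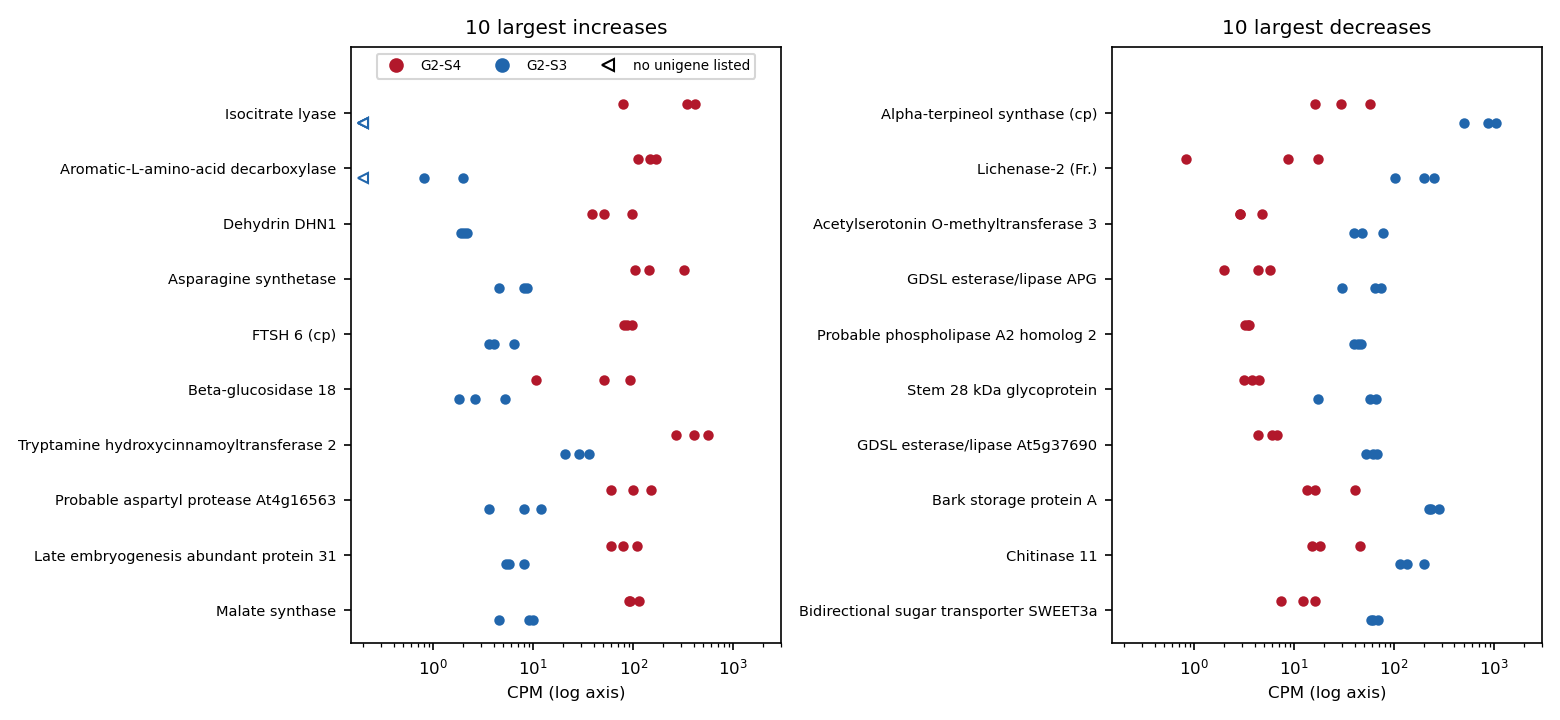
CPM per library (log axis) of the 10 largest increases (left) and the 10 largest decreases (right) among called names averaging 20 CPM or more over the 6 libraries without overlap, G2-S4 above G2-S3 within each row; open triangles mark libraries in which no unigene of the name was listed. For isocitrate lyase all 3 G2-S3 libraries are unlisted, and FTSH 6 shows the tightest replicates among the increases.

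The apparatus of light capture was mostly lower at the extreme dose. Of 56 tested subunits of the photosystems, the cytochrome b6-f complex, the plastid ATP synthase and the NDH complex, 50 were lower and 6 were not called, with a median log2 fold change of -0.99 beside -0.01 over all names. Of 16 antenna proteins, which bind chlorophyll and pass light energy on, 10 were lower and 1 higher (median -0.75). The antenna protein CP29.1 of photosystem II stood at 42.2, 47.8 and 58.6 CPM in G2-S4, against 225, 163 and 183 CPM in G2-S3 (log2 fold change -1.94 ± 0.14, adjusted p = 4e-05), and its neighbour CP26 at 101.2, 122 and 133 CPM in G2-S4, against 406, 357 and 342 CPM in G2-S3 (log2 fold change -1.63 ± 0.12, adjusted p = 3.04e-05). For both, the highest G2-S4 library lay well below the lowest G2-S3 library. In photosystem I, subunit psaK fell by 1.88 ± 0.13 and the antenna protein P4 fell by 1.35 ± 0.09 on the log2 scale (adjusted p = 2.68e-05 and 2.31e-05). The NDH subunit of subcomplex B 5, which serves cyclic electron flow, had 180.1, 163 and 179.8 CPM in G2-S4, against 695, 487 and 749 CPM in G2-S3 (log2 fold change -1.88 ± 0.15, adjusted p = 4.55e-05). Oxygen-evolving enhancer protein 1, which holds the water-splitting cluster, stood at 1178 ± 71.7 CPM in G2-S4 and 2250.5 ± 315 CPM in G2-S3 (SD, n = 3 each, with log2 fold change -0.93 ± 0.12, adjusted p = 0.000414), and leaf ferredoxin--NADP reductase at 1288 ± 112 CPM in G2-S4 and 2322 ± 42.4 CPM in G2-S3 (log2 fold change -0.85 ± 0.09, adjusted p = 0.0002). The antenna member called higher was chlorophyll a-b binding protein 3, with 17.9, 18.2 and 12.9 CPM in G2-S4, against 7.33, 6.28 and 6.12 CPM in G2-S3 (log2 fold change 1.31 ± 0.15, adjusted p = 0.000295).

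Early light-induced proteins, relatives of the antenna that bind free chlorophyll in stressed plastids, were higher or not called (1 of 2 called higher, and 0 without replicate 1 of G2-S4 and 2 without replicate 2 or 3 of G2-S3). HV60 stood at 4151, 3604 and 3777 CPM in G2-S4, against 2486, 2457 and 1220.3 CPM in G2-S3 (log2 fold change 0.90 ± 0.25, adjusted p = 0.0184, and 0.85 with adjusted p = 0.0558 without replicate 1 of G2-S4). HV90 had 3168, 2439.6 and 2555 CPM in G2-S4, against 1568, 1765 and 418 CPM in G2-S3. The groups did not overlap and G2-S3 replicate 3 was the lowest library, but the difference was not called (log2 fold change 1.12 ± 0.44, adjusted p = 0.0739, and 1.45 with adjusted p = 0.0499 without replicate 2 of G2-S3 and 0.70 with adjusted p = 0.0365 without replicate 3 of G2-S3). DESeq2 called it higher (1.13, adjusted p = 0.0318).

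Enzymes of carbon fixation were mostly lower too. Of 23 tested names of the Calvin cycle and its helpers, 18 were lower and 1 higher (median -0.82). Rubisco small chain A, the nuclear-coded subunit of Rubisco, had 509, 561 and 597 CPM in G2-S4, against 2220.4, 1902 and 2248 CPM in G2-S3 and 2951, 3494 and 3086 CPM in G2-CK (log2 fold change -1.93 ± 0.11, adjusted p = 1.48e-05). It was 3.82-fold lower in G2-S4, and all 9 of its unigenes above 1 CPM were separated in this direction. One of these unigenes, Cluster-14027.159114 (393 bp), was one of the targets chosen for quantitative PCR in the study and had 0.778, 0.41 and 1.51 CPM in G2-S4, against 6.5, 6.33 and 6.45 CPM in G2-S3. Another PCR target was Cluster-14027.231635 (2614 bp), a unigene of probable protein S-acyltransferase 19, which fixes palmitate to proteins. It had 1.81, 1.91 and 2.51 CPM in G2-S4, against 7.04, 5.83 and 4.24 CPM in G2-S3. In both unigenes the doses did not overlap. The primers, each 20 bases long and written 5′ to 3′ in lower case, are shown because they define the stretch of each transcript that the PCR measures:
Rubisco small chain forward: cagcaacggtggaaggatca
Rubisco small chain reverse: ttctcacggaagacgaagcc
S-acyltransferase forward: aggttcgtttctgcacaggc
S-acyltransferase reverse: gggtcactgggaacgaacac

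Among the other steps of the cycle, phosphoribulokinase, which regenerates the acceptor of carbon dioxide, stood at 876, 986 and 850.3 CPM in G2-S4, against 1769, 1582 and 1743 CPM in G2-S3 (log2 fold change -0.91 ± 0.12, adjusted p = 0.000456). Sedoheptulose-1,7-bisphosphatase, a step that often limits the cycle, fell by 0.97 ± 0.10 and fructose-1,6-bisphosphatase fell by 0.997 ± 0.10 on the log2 scale (adjusted p = 0.000149 and 0.000148). Glyceraldehyde-3-phosphate dehydrogenase A, the reducing step, had 661, 694 and 757 CPM in G2-S4, against 1279, 1159.6 and 1303 CPM in G2-S3 (log2 fold change -0.83 ± 0.08, adjusted p = 0.000148). Its partner subunit B fell by 0.60 ± 0.17 (adjusted p = 0.0202), a call lost with several libraries left out (adjusted p = 0.0565 to 0.072 without replicate 1 or 2 of G2-S4 or replicate 1 or 2 of G2-S3). Rubisco activase, which clears inhibitors from Rubisco, was not called, with 2176, 2109 and 2582 CPM in G2-S4, against 2087, 2076 and 1665 CPM in G2-S3 (log2 fold change 0.24 ± 0.16, adjusted p = 0.264), while the separate name activase B was lower (log2 fold change -0.95 ± 0.20, adjusted p = 0.00549). Transketolase and the main plastid aldolase were not called either (adjusted p = 0.155 and 0.763), and fructose-bisphosphate aldolase 3 was the only member called higher (log2 fold change 0.72 ± 0.17, adjusted p = 0.00908).

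In bulk leaf tissue, fewer mesophyll cells and less RNA of these genes per cell cannot be told apart. The summed mesophyll markers, which are themselves Rubisco small chains and antenna proteins, ran from 1803.7 to 2183.7 CPM in G2-S4 and from 4682.9 to 5112.9 CPM in G2-S3, with 10 of 15 tested names lower and 1 higher. The guard cell markers, a list of 6 names led by the potassium channel KAT1, summed to 181.5 to 199.0 CPM in G2-S4 and 91.6 to 124.6 CPM in G2-S3, and 2 of 4 tested were higher. Phloem markers summed to 899.1 to 941.1 CPM in G2-S4 and 811.4 to 927.8 CPM in G2-S3, with 2 of 4 tested higher. Xylem markers summed to 139.4 to 189.1 CPM in G2-S4 and 95.9 to 309.1 CPM in G2-S3, and the Casparian strip proteins that mark roots to 2.2 to 2.9 CPM in G2-S4 and 3.0 to 4.5 CPM in G2-S3, with 1 of 2 at 0. What part these markers have in the results was not tested.

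The enzymes that carry the C4 cycle in maize, present in all plants for other duties, moved both ways, in part within the same step. Of 24 tested names, 11 were higher and 5 lower (median 0.34; 7 without replicate 2 of G2-S4 for the higher names). Pyruvate, phosphate dikinase 1, which makes phosphoenolpyruvate from pyruvate, had 576, 683 and 817 CPM in G2-S4, against 182, 244 and 156 CPM in G2-S3 (log2 fold change 1.83 ± 0.17, adjusted p = 0.000111), and dikinase 2 was higher by 1.86 ± 0.18 on the log2 scale (adjusted p = 0.000128). Neither dikinase overlapped between the doses. Cytoplasmic aspartate aminotransferase had 611, 645 and 666 CPM in G2-S4, against 284, 310.3 and 211 CPM in G2-S3 (log2 fold change 1.26 ± 0.13, adjusted p = 0.000184) and the mitochondrial form 106, 101.2 and 99.8 CPM in G2-S4, against 45.9, 46.1 and 39.2 CPM in G2-S3 (log2 fold change 1.23 ± 0.09, adjusted p = 2.9e-05). Phosphoenolpyruvate carboxykinase (ATP) 1, which in senescing leaves links acids to sugar and amino acid export, had 772, 869 and 989 CPM in G2-S4, against 396, 540.1 and 204 CPM in G2-S3 and 25.3, 21.9 and 25.5 CPM in G2-CK (log2 fold change 1.21 ± 0.28, adjusted p = 0.01). The name phosphoenolpyruvate carboxykinase (ATP) without a number was not called, with 3209, 3546 and 3849 CPM in G2-S4, against 2847, 3841 and 1389.5 CPM in G2-S3 (log2 fold change 0.39 ± 0.30, adjusted p = 0.323). NADP-dependent malic enzyme was called higher, but not without replicate 2 of G2-S4 or replicate 1 or 2 of G2-S3 (adjusted p = 0.0682 to 0.0822). NAD-dependent malic enzyme 1 was called higher, but not without replicate 2 or 3 of G2-S4 or replicate 1 or 3 of G2-S3 (adjusted p = 0.0708 to 0.105).

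The carboxylase and its kinase were among the lower names. Phosphoenolpyruvate carboxylase 2, which fixes bicarbonate, had 171, 186 and 163 CPM in G2-S4, against 223, 274 and 238 CPM in G2-S3 (log2 fold change -0.50 ± 0.12, adjusted p = 0.00968), and the name phosphoenolpyruvate carboxylase without a number was lower as well (log2 fold change -0.72 ± 0.13, adjusted p = 0.00291), although carboxylase 1 was not called (adjusted p = 0.7). The kinase that switches the carboxylase on, phosphoenolpyruvate carboxylase kinase 2, had 2.67, 2.31 and 3.08 CPM in G2-S4, against 9.13, 8.56 and 21.3 CPM in G2-S3, and 121, 95.7 and 93.6 CPM in G2-CK (log2 fold change -2.27 ± 0.36, adjusted p = 0.00135). Every library of both salt doses lay under every control library for this kinase, with G2-S4 under every G2-S3 library. Plastid malate dehydrogenase [NADP], which exports reducing power, fell by 0.82 ± 0.11 and carbonic anhydrase fell by 0.85 ± 0.12 (adjusted p = 0.00058 and 0.000922).

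**Figure D3:**
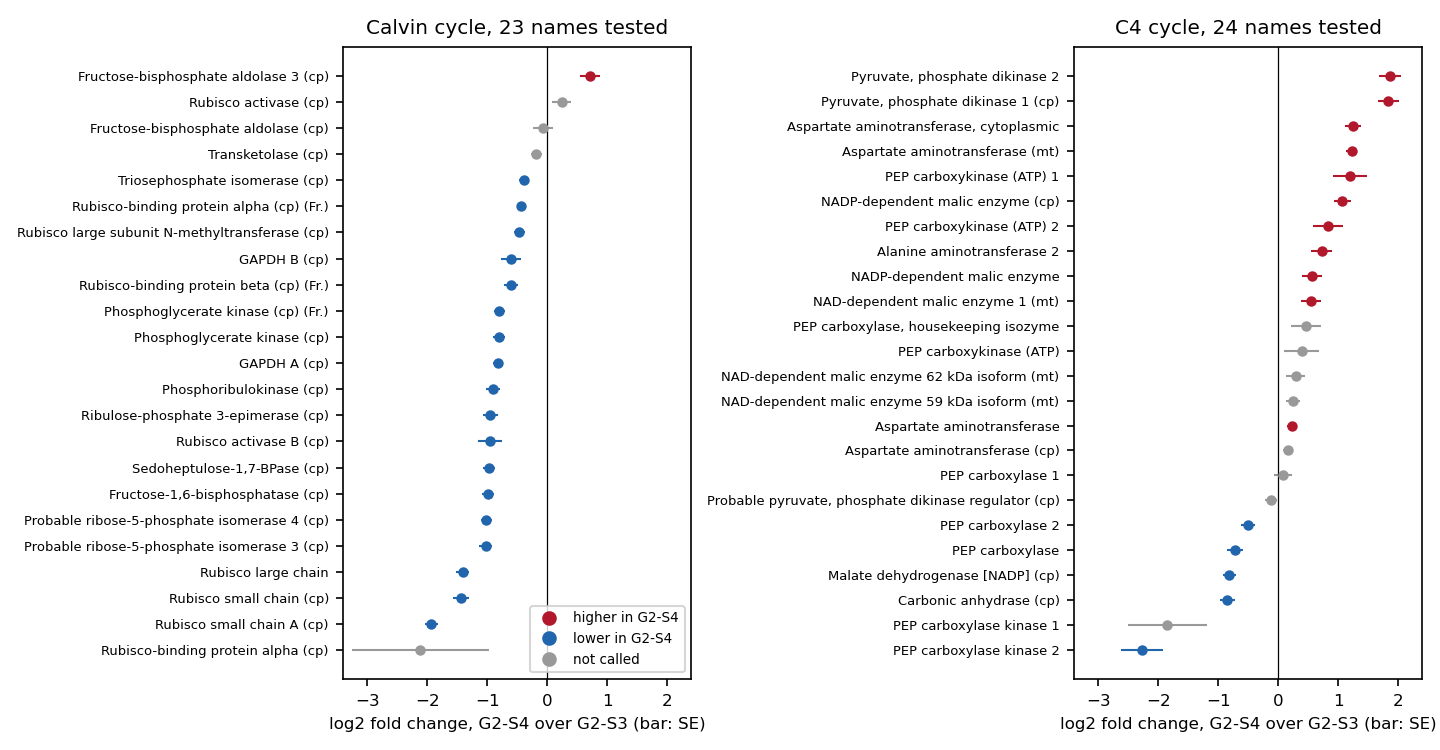
Log2 fold change of G2-S4 over G2-S3 with its standard error for the 23 tested Calvin cycle names (left) and the 24 tested names of C4 cycle enzymes (right), red for names called higher in G2-S4, blue for names called lower and grey for names not called. The Calvin cycle panel has 18 blue points and 1 red point, while the C4 panel divides into 11 red and 5 blue points.

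Photorespiration, which recovers the product of Rubisco's side reaction with oxygen, was mostly lower. Of 20 tested names, 15 were lower and 1 higher (2 without replicate 2 of G2-S3; median -0.88). Serine--glyoxylate aminotransferase, one of the most abundant names of the leaf, stood at 2525, 2276 and 1981 CPM in G2-S4, against 4923, 4852 and 5096 CPM in G2-S3 (log2 fold change -1.13 ± 0.10, adjusted p = 8.17e-05). The H protein of the glycine cleavage system had 178, 146 and 171 CPM in G2-S4, against 578, 531 and 477 CPM in G2-S3 (log2 fold change -1.68 ± 0.11, adjusted p = 2.68e-05), whereas the decarboxylating subunit of the same complex was not called (log2 fold change 0.16 ± 0.19, adjusted p = 0.533). Glycolate oxidase divided by isoform. GLO5, which oxidises glycolate, had 1764, 1653 and 1609.9 CPM in G2-S4, against 3044, 3241 and 3744 CPM in G2-S3 (log2 fold change -0.997 ± 0.09, adjusted p = 0.000105), and GLO3, of the same oxidase family, was 5.73-fold higher, with 286, 388 and 313 CPM in G2-S4, against 75.5, 54.2 and 42.5 CPM in G2-S3 (log2 fold change 2.52 ± 0.20, adjusted p = 4.59e-05).

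Chlorophyll synthesis was mostly lower and chlorophyll breakdown mostly higher. Of 18 tested names of chlorophyll synthesis, 10 were lower and 3 higher (median -0.36; 1 without replicate 3 of G2-S4 higher), and of 9 of chlorophyll breakdown 5 were higher and 1 lower (median 0.53). The protein STAY-GREEN, which pulls magnesium out of chlorophyll and starts its breakdown, had 679, 604 and 363 CPM in G2-S4, against 78.8, 74.9 and 119.8 CPM in G2-S3 (log2 fold change 2.59 ± 0.32, adjusted p = 0.000368). G2-S4 replicate 3 was the lowest of its group and still above every G2-S3 library, and all 10 unigenes above 1 CPM were separated in this direction. Chlorophyll b reductase NOL was higher by 1.13 ± 0.23 and pheophorbide a oxygenase, which opens the ring, by 0.84 ± 0.17 on the log2 scale (adjusted p = 0.00529 and 0.0047). Red chlorophyll catabolite reductase, the step after it, was higher as well (log2 fold change 0.65 ± 0.11, adjusted p = 0.00189). The abundant pheophytinase was not called (911, 819 and 641 CPM in G2-S4, against 712, 706 and 627 CPM in G2-S3, log2 fold change 0.21 ± 0.12, adjusted p = 0.206, and 0.35 with adjusted p = 0.0276 without replicate 3 of G2-S4), and 7-hydroxymethyl chlorophyll a reductase fell by 0.60 ± 0.11 (adjusted p = 0.00343). On the side of synthesis, protochlorophyllide reductase B fell by 0.58 ± 0.09, chlorophyll synthase fell by 0.65 ± 0.08 and the cyclase fell by 0.71 ± 0.12 (adjusted p = 0.0011, 0.000517 and 0.00241), while geranylgeranyl diphosphate reductase, which also serves vitamin E, was higher (log2 fold change 0.71 ± 0.17, adjusted p = 0.0115).

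Ribosomal proteins of the plastid, which translate the chloroplast's own genes, were mostly lower. Of 40 tested plastid ribosomal proteins, 36 were lower and 4 were not called (median -0.75). The 30S protein S1 stood at 236, 216 and 226 CPM in G2-S4, against 404, 349 and 371 CPM in G2-S3 (log2 fold change -0.73 ± 0.09, adjusted p = 0.000403) and the 50S protein L24 at 289, 249 and 259 CPM in G2-S4, against 432, 379.9 and 437 CPM in G2-S3 (log2 fold change -0.65 ± 0.09, adjusted p = 0.000808). Of 114 cytosolic ribosomal proteins 11 were lower and 103 were not called (median -0.16). That count depends on the libraries and on the filter. With single libraries left out it was 5 without replicate 1 of G2-S4, 3 without replicate 2 of G2-S4 or replicate 1 or 2 of G2-S3 and 33 without replicate 3 of G2-S3 lower, and 1 without replicate 2 of G2-S4 higher. With only the 6 salt libraries in the fit 5 were lower, and with edgeR's own filter, which tests more names of low level, 9 were higher. With no filter the balance turned round, with 10 higher and 5 lower of 177, so the list is given no direction. Plastid proteases and chaperonins moved both ways (9 higher and 25 lower of 44, median -0.39). FTSH 2, a protease of the thylakoid, was higher at 3592, 3097 and 2495 CPM in G2-S4, against 2147, 2011 and 1798 CPM in G2-S3 (log2 fold change 0.62 ± 0.13, adjusted p = 0.00616), and so was ClpD1, a stress-induced unfoldase known as ERD1 in Arabidopsis (1430.4, 1306 and 970.0 CPM in G2-S4, against 383, 445 and 532 CPM in G2-S3, log2 fold change 1.45 ± 0.28, adjusted p = 0.00403). Chaperonin 60 subunit beta 4, of the complex that helps fold plastid proteins, was lower at 193, 187 and 153 CPM in G2-S4, against 389, 303 and 452 CPM in G2-S3 (log2 fold change -1.10 ± 0.14, adjusted p = 0.000531).

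Names of fat oxidation and amino acid breakdown were more often higher than lower. Of 14 tested names of peroxisomal beta-oxidation and the glyoxylate cycle, 11 were higher and 2 lower (median 0.61). Beside isocitrate lyase and malate synthase, the multifunctional protein of beta-oxidation had 575, 592 and 565 CPM in G2-S4, against 352, 416 and 316 CPM in G2-S3 (log2 fold change 0.68 ± 0.10, adjusted p = 0.0012) and 3-ketoacyl-CoA thiolase 2, its last step, 788, 756 and 626 CPM in G2-S4, against 461, 467 and 466 CPM in G2-S3 (log2 fold change 0.64 ± 0.09, adjusted p = 0.000868). The thiolase sums unigenes that divided, with 9 separated upward and 3 downward of 14 above 1 CPM. Glyoxysomal malate dehydrogenase was lower, at 1116, 1041 and 1007 CPM in G2-S4, against 1645, 1734 and 1558 CPM in G2-S3 (log2 fold change -0.64 ± 0.09, adjusted p = 0.000884). This enzyme also serves photorespiration. Among 32 names of amino acid catabolism 13 were higher and 1 lower (median 0.36). Glutamate dehydrogenase 2, which strips ammonium from glutamate, was 10.6-fold higher, with 952, 1206 and 1051 CPM in G2-S4, against 107, 141 and 54.5 CPM in G2-S3 (log2 fold change 3.404 ± 0.30, adjusted p = 7.53e-05), and isoform 1 was the lower one (22.7, 25.9 and 25.2 CPM in G2-S4, against 39.4, 46.5 and 37.4 CPM in G2-S3, log2 fold change -0.74 ± 0.11, adjusted p = 0.000961). 4-hydroxyphenylpyruvate dioxygenase, on the way from tyrosine to vitamin E and to breakdown, had 1051, 861 and 515 CPM in G2-S4, against 292, 295 and 223 CPM in G2-S3 (log2 fold change 1.58 ± 0.23, adjusted p = 0.000856). Its unigenes divided as well, with 3 separated upward and 1 downward of 6 above 1 CPM. In the mitochondrial chain 21 of 57 tested names (36.8%) were higher and 36 were not called (median 0.25), where 17.8% of all names were higher. The count depends on the libraries. It was 12 without replicate 3 of G2-S4 and 13 without replicate 3 of G2-S3. Without replicate 1 of G2-S3 it was 11, where 1264 of all 9827 names were higher. The largest difference of the chain was that of succinate dehydrogenase, which oxidises succinate, with 1708, 1629 and 1876 CPM in G2-S4, against 760.4, 869 and 494 CPM in G2-S3 for the flavoprotein (log2 fold change 1.30 ± 0.20, adjusted p = 0.00111).

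Enzymes that dismantle protein and nucleic acid were higher for a minority of names. Of 23 senescence-related proteases and nucleases, 10 were higher and 3 lower (median 0.39). Oryzain alpha chain, a papain-type cysteine protease of the vacuole, had 3474, 3600.1 and 3079.6 CPM in G2-S4, against 1363, 1139 and 1262 CPM in G2-S3 (log2 fold change 1.43 ± 0.11, adjusted p = 4.55e-05). Endonuclease 2, which degrades RNA and single-stranded DNA, had 81.0, 107 and 97.4 CPM in G2-S4, against 23.0, 21.0 and 22.6 CPM in G2-S3 (log2 fold change 2.10 ± 0.15, adjusted p = 3.14e-05). The cysteine protease SAG39, used as a marker of senescence in rice, went against its name, with 393, 293 and 366 CPM in G2-S4, against 1458, 1084 and 1207 CPM in G2-S3 and 3161, 2828 and 2526 CPM in G2-CK (log2 fold change -1.83 ± 0.15, adjusted p = 5.71e-05). It was lowest in the leaves with most salt. Vacuolar-processing enzyme, which activates vacuolar proteases, was not called (3192, 3894 and 2532 CPM in G2-S4, against 1966, 1595 and 2942 CPM in G2-S3, log2 fold change 0.56 ± 0.23, adjusted p = 0.0759, and 0.71 with adjusted p = 0.0432 without replicate 3 of G2-S4 and 0.85 with adjusted p = 0.00794 without replicate 3 of G2-S3), although DESeq2 called it higher (0.57, adjusted p = 0.0265). Autophagy, which delivers cell contents to the vacuole, had 8 higher and 1 lower of 19 (median 0.17; 4 without replicate 1 of G2-S4, 3 without replicate 2 of G2-S4 and 5 without replicate 1 of G2-S3 higher), led by autophagy-related protein 8D (32.8, 37.4 and 30.7 CPM in G2-S4, against 18.0, 20.4 and 23.8 CPM in G2-S3, log2 fold change 0.70 ± 0.12, adjusted p = 0.00205). The proteasome had 12 of 42 higher and 30 not called (median 0.17), a count that changed with single libraries left out (2 without replicate 1 of G2-S4 or replicate 1 of G2-S3, 5 without replicate 2 of G2-S4 and 4 without replicate 3 of G2-S3 higher; 1 without replicate 3 of G2-S3 lower) and was 6 with only the 6 salt libraries in the fit.

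Nitrogen enzymes moved both ways. Of 18 tested names, 6 were higher and 5 lower (median 0.19). Nitrate reductase [NAD(P)H], the first step of nitrate reduction, had 363, 449.5 and 555 CPM in G2-S4, against 148, 172 and 29.9 CPM in G2-S3, and 2.95, 2.91 and 1.41 CPM in G2-CK (log2 fold change 1.97 ± 0.52, adjusted p = 0.0166). G2-S3 replicate 3 lay between the controls and its fellows here. Nitrate reductase [NADH] 1 was steadier, with 503, 514 and 575 CPM in G2-S4, against 339, 372 and 315 CPM in G2-S3 (log2 fold change 0.64 ± 0.15, adjusted p = 0.00935). The plastid glutamine synthetase that recaptures photorespiratory ammonium, the leaf isozyme, was lower with 126, 132 and 115 CPM in G2-S4, against 321, 268 and 287 CPM in G2-S3 (log2 fold change -1.23 ± 0.12, adjusted p = 0.000141), and cytosolic isozyme 1-1 fell by 1.053 ± 0.23 (adjusted p = 0.00723). Transporters of nitrate, peptides and amino acids moved both ways (12 higher and 17 lower of 47, median -0.26; 7 without replicate 2 of G2-S4 higher). NRT1/PTR FAMILY 6.4 was among the most even, with 358, 402 and 446 CPM in G2-S4, against 89.4, 90.2 and 96.3 CPM in G2-S3 (log2 fold change 2.13 ± 0.10, adjusted p = 8.21e-06), and FAMILY 2.3 the steepest decrease, with 2.24, 2.58 and 1.85 CPM in G2-S4, against 18.4, 23.8 and 19.99 CPM in G2-S3 (log2 fold change -3.22 ± 0.15, adjusted p = 8.1e-06). Proline transporter 1 was higher (81.8, 87.0 and 80.1 CPM in G2-S4, against 34.1, 41.5 and 25.2 CPM in G2-S3, log2 fold change 1.30 ± 0.23, adjusted p = 0.00249).

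Several names of sulfur assimilation were higher, within a list of sulfate and phosphate proteins that moved both ways. Of 41 names, 10 were higher and 8 lower (median 0.10, and 5 lower without replicate 1 of G2-S4). That is 43.9% called, beside 37.8% over all names, of which 17.8% were higher and 19.9% lower. At least 2-fold higher were 6 names of the list, and at least 2-fold lower 4, so the higher names below do not stand for the list. Probable sulfate transporter 3.5 had 456, 611 and 612 CPM in G2-S4, against 50.5, 90.3 and 3.21 CPM in G2-S3 and was listed in no control library. G2-S3 replicate 3 lay far below its fellows, and the difference (log2 fold change 3.54 ± 0.92, adjusted p = 0.0209) was 3.48 with adjusted p = 0.0517 without replicate 2 of G2-S4, 3.57 with adjusted p = 0.0687 without replicate 1 of G2-S3 and 4.38 with adjusted p = 0.0193 without replicate 2 of G2-S3. Sulfate transporter 3.1 had 587, 816 and 1094 CPM in G2-S4, against 195, 200.1 and 53.2 CPM in G2-S3 (log2 fold change 2.48 ± 0.44, adjusted p = 0.00243). 5'-adenylylsulfate reductase 1, the step that commits sulfate to cysteine, had 389, 526 and 520.1 CPM in G2-S4, against 159, 181 and 113 CPM in G2-S3 (log2 fold change 1.67 ± 0.18, adjusted p = 0.000196), and sulfite reductase was higher by 0.70 ± 0.15 (adjusted p = 0.00577). Among 19 names of iron uptake and storage 2 were higher and 6 lower (4 without replicate 3 of G2-S4 higher). Ferritin-1, which stores iron in the plastid, had 547, 455 and 563 CPM in G2-S4, against 223, 179 and 125 CPM in G2-S3 (log2 fold change 1.57 ± 0.19, adjusted p = 0.000312), and the metal-nicotianamine transporter YSL9 rose where YSL13 fell (1.65 ± 0.09 and -1.52 ± 0.09 on the log2 scale, adjusted p = 1.05e-05 and 2e-05).

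Proton pumps were mostly higher. Of 27 tested proton pump names, 17 were higher and 10 were not called (median 0.36). Plasma membrane ATPase, which energises transport out of and into the cell, had 3092, 4004 and 3669 CPM in G2-S4, against 1542, 1931 and 1311 CPM in G2-S3 and 1183, 978 and 930.4 CPM in G2-CK (log2 fold change 1.17 ± 0.16, adjusted p = 0.000723). Subunit E of the vacuolar ATPase, which drives sodium into the vacuole through exchangers, had 285, 273 and 270.2 CPM in G2-S4, against 195, 199 and 163 CPM in G2-S3 (log2 fold change 0.57 ± 0.08, adjusted p = 0.00104), and vacuolar pyrophosphatase 1 131, 126 and 112 CPM in G2-S4, against 91.3, 85.0 and 73.2 CPM in G2-S3 (log2 fold change 0.57 ± 0.10, adjusted p = 0.00299). Among 55 transporters and channels of sodium, potassium and chloride 18 were higher and 7 lower (median 0.16). The anion channel SLAH3, of the family that closes stomata by letting chloride and nitrate out of guard cells, had 173, 145 and 108 CPM in G2-S4, against 43.0, 52.7 and 55.7 CPM in G2-S3 (log2 fold change 1.49 ± 0.23, adjusted p = 0.0011), and SLAH2 was higher by 1.67 ± 0.34 (adjusted p = 0.0047). The vacuolar chloride channel CLC-c had 297, 324 and 279 CPM in G2-S4, against 187, 193 and 185 CPM in G2-S3 (log2 fold change 0.67 ± 0.08, adjusted p = 0.00033).

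The HKT transporters, some of which in cereals take sodium back out of the xylem sap, divided. HKT9 was higher at 16.0, 17.8 and 18.3 CPM in G2-S4, against 7.16, 7.67 and 7.70 CPM in G2-S3 (log2 fold change 1.21 ± 0.13, adjusted p = 0.000219). HKT7 was lower at 3.19, 2.58 and 4.73 CPM in G2-S4, against 6.47, 7.17 and 7.32 CPM in G2-S3 (log2 fold change -0.99 ± 0.23, adjusted p = 0.00901), and HKT6 was lower at 0, 1.02 and 0 CPM in G2-S4, against 3.04, 3.88 and 6.21 CPM in G2-S3, beside 28.5, 31.0 and 20.5 CPM in G2-CK. HKT6 was unlisted in G2-S4 replicates 1 and 3, so no fold change is given (adjusted p = 0.00614, and below 0.05 with any 1 library left out). Aquaporins, the water channels, had 9 higher and 3 lower of 18 (median 0.51). The vacuolar TIP1-1 was 4.04-fold higher at 52.1, 70.3 and 68.4 CPM in G2-S4, against 13.6, 14.5 and 19.1 CPM in G2-S3 (log2 fold change 2.02 ± 0.17, adjusted p = 6.62e-05), while TIP1-2 fell by 0.87 ± 0.20 (adjusted p = 0.00974). NIP2-2, a silicon channel in rice, had 162, 237 and 196 CPM in G2-S4, against 57.8, 85.8 and 36.8 CPM in G2-S3 (log2 fold change 1.72 ± 0.29, adjusted p = 0.00197).

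Abscisic acid, the hormone of water shortage, is made from carotenoids, broken down by hydroxylases and sensed by receptors that free stress kinases. Of 20 tested names, 10 were higher and 1 lower (median 0.37; 6 without replicate 1 of G2-S4 or replicate 1 of G2-S3 higher). Abscisic acid 8'-hydroxylase 3, which breaks the hormone down, had 50.2, 46.8 and 69.7 CPM in G2-S4, against 14.7, 25.9 and 14.6 CPM in G2-S3 (log2 fold change 1.59 ± 0.26, adjusted p = 0.00163), and 8'-hydroxylase 1 44.002, 38.4 and 36.3 CPM in G2-S4, against 13.4, 16.2 and 16.7 CPM in G2-S3 (log2 fold change 1.36 ± 0.16, adjusted p = 0.000272). Zeaxanthin epoxidase, at the start of its synthesis, had 681, 659 and 461 CPM in G2-S4, against 353, 342 and 244 CPM in G2-S3 (log2 fold change 0.94 ± 0.18, adjusted p = 0.00343). The stress kinase SAPK1 was higher (29.7, 33.0 and 29.1 CPM in G2-S4, against 12.4, 10.1 and 13.7 CPM in G2-S3, log2 fold change 1.34 ± 0.14, adjusted p = 0.000182), the receptor PYL8 was not called (log2 fold change -0.05 ± 0.10, adjusted p = 0.729) and the transcription factor ABSCISIC ACID-INSENSITIVE 5-like protein 3 was lower (3.53, 4.49 and 4.73 CPM in G2-S4, against 13.1, 13.8 and 15.2 CPM in G2-S3, log2 fold change -1.72 ± 0.13, adjusted p = 4.35e-05).

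Dehydrins and other late embryogenesis abundant proteins, which keep proteins and membranes from collapsing as water leaves, had 7 higher and 2 lower of 13 (median 0.81; 1 without replicate 1, 2 or 3 of G2-S4 or replicate 1 or 2 of G2-S3 lower). Dehydrin DHN3 was almost absent at the lower dose, with 42.6, 34.6 and 25.3 CPM in G2-S4, against 0.6, 0.422 and 0.899 CPM in G2-S3 (log2 fold change 5.73 ± 0.35, adjusted p = 2e-05). Dehydrins HIRD11 and COR410 were already well expressed there and rose further, HIRD11 at 582, 458 and 423 CPM in G2-S4, against 189, 172 and 104 CPM in G2-S3 (log2 fold change 1.65 ± 0.25, adjusted p = 0.0011) and COR410 at 732, 663 and 536 CPM in G2-S4, against 355, 268 and 308 CPM in G2-S3 (log2 fold change 1.052 ± 0.14, adjusted p = 0.000609). The 2 lower members are BURP domain proteins, a family taken in with the stress proteins, of which BURP domain-containing protein 10 had 1.29, 1.42 and 3.91 CPM in G2-S4, against 12.8, 10.1 and 8.47 CPM in G2-S3 (log2 fold change -2.23 ± 0.37, adjusted p = 0.00164, and -2.94 with adjusted p = 0.000128 without replicate 3 of G2-S4). The name with the most reads of all in these libraries, abscisic stress-ripening protein 2, had 8011, 7892 and 7891 CPM in G2-S4, against 6337, 7041 and 3576 CPM in G2-S3. All G2-S4 libraries were above all G2-S3 libraries, of which replicate 3 was the lowest, but the difference was not called (log2 fold change 0.49 ± 0.23, adjusted p = 0.121).

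Compatible solutes, small molecules that balance the salt in the vacuole, had 12 names higher and 7 lower of 30 (median 0.29; 4 without replicate 2 or 3 of G2-S4 or replicate 1 or 2 of G2-S3 lower). The key enzyme of proline synthesis, delta-1-pyrroline-5-carboxylate synthase, was 4.75-fold higher, with 1648, 1727 and 1502 CPM in G2-S4, against 361, 411 and 254 CPM in G2-S3 (log2 fold change 2.25 ± 0.17, adjusted p = 4.35e-05), and all 15 of its unigenes above 1 CPM were separated in this direction. Control leaves had 137, 146 and 169.5 CPM. Of the enzymes that lead to polyamines, arginine decarboxylase 1 was higher with 886, 1163 and 1450.3 CPM in G2-S4, against 400.3, 620.3 and 243 CPM in G2-S3 (log2 fold change 1.47 ± 0.31, adjusted p = 0.00567) and so was S-adenosylmethionine decarboxylase with 2178, 2254 and 2013 CPM in G2-S4, against 1108, 1268 and 1079 CPM in G2-S3 (log2 fold change 0.90 ± 0.09, adjusted p = 0.000148). Inositol-3-phosphate synthase, which starts the route to inositol and its methylated solutes, was lower with 54.2, 37.3 and 40.9 CPM in G2-S4, against 76.0, 85.0 and 96.1 CPM in G2-S3 (log2 fold change -0.96 ± 0.15, adjusted p = 0.00134). Trehalose-phosphate synthases 9 and 10 were higher (2.12 ± 0.33 and 1.57 ± 0.26, adjusted p = 0.00119 and 0.00164), and trehalose-phosphate phosphatase 1 was lower (1.12, 1.199 and 0.576 CPM in G2-S4, against 5.96, 5.69 and 2.70 CPM in G2-S3, log2 fold change -2.31 ± 0.56, adjusted p = 0.0109).

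Enzymes against reactive oxygen showed no common direction. Of 79 tested names, 20 were higher and 21 lower (median -0.06). Of the abundant scavengers of hydrogen peroxide, catalase-1 was not called with 2718, 2322 and 2342 CPM in G2-S4, against 2217, 2457 and 1874 CPM in G2-S3 (log2 fold change 0.17 ± 0.12, adjusted p = 0.277). Cytosolic ascorbate peroxidase 2 lay near the threshold, with 1129, 1041 and 1135 CPM in G2-S4, against 968, 840.3 and 578 CPM in G2-S3 (log2 fold change 0.47 ± 0.18, adjusted p = 0.0675, and 0.63 with adjusted p = 0.0349 without replicate 1 of G2-S3), and DESeq2 called it higher (0.48, adjusted p = 0.0268). The lower members included thiol proteins of the plastid. Thioredoxin M-type, which passes light signals to Calvin cycle enzymes, had 511, 487 and 525 CPM in G2-S4, against 994, 1046 and 976 CPM in G2-S3 (log2 fold change -0.99 ± 0.07, adjusted p = 3.5e-05), and peroxiredoxin-2E-2 fell by 1.41 ± 0.12 (adjusted p = 6.11e-05). Glutaredoxin-C1 was the largest increase of the list (16.1, 11.99 and 6.33 CPM in G2-S4, against 1.33, 0.885 and 1.58 CPM in G2-S3, log2 fold change 3.17 ± 0.38, adjusted p = 0.000351). Glutathione S-transferases, which tag toxic compounds, had 4 higher (2 without replicate 1 or 2 of G2-S4 or replicate 1 of G2-S3) and 6 lower (2 without replicate 1 of G2-S3) of 19, with U17 at 34.0, 34.2 and 29.98 CPM in G2-S4, against 5.96, 4.72 and 6.29 CPM in G2-S3 (log2 fold change 2.53 ± 0.17, adjusted p = 2.68e-05). The secreted class III peroxidases, which act on the cell wall, had 7 lower and 2 higher of 16 (median -0.59; 1 without replicate 1, 2 or 3 of G2-S4 or replicate 3 of G2-S3 higher). Peroxidase 3 had 34.4, 37.9 and 47.6 CPM in G2-S4, against 158, 179 and 97.4 CPM in G2-S3 and 11.1, 7.22 and 15.02 CPM in G2-CK (log2 fold change -1.86 ± 0.28, adjusted p = 0.0011), so the severe dose held the highest level of the 3 groups. Cationic peroxidase SPC4 went the other way (186, 181 and 205 CPM in G2-S4, against 22.4, 45.9 and 20.7 CPM in G2-S3, log2 fold change 2.68 ± 0.31, adjusted p = 0.000295).

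Sucrose enzymes and sugar transporters had 15 higher and 10 lower of 54 (median 0.06; 6 without replicate 3 of G2-S4 lower). Sucrose-phosphate synthase, which makes the sugar that leaves export, had 249, 240.2 and 243 CPM in G2-S4, against 517, 649 and 506 CPM in G2-S3 (log2 fold change -1.19 ± 0.10, adjusted p = 7.26e-05), while probable sucrose-phosphate synthase 5 was higher with 517, 637 and 531 CPM in G2-S4, against 347, 387 and 360.4 CPM in G2-S3 (log2 fold change 0.62 ± 0.14, adjusted p = 0.0082). Sugar transporter SWEET4 was 3.59-fold higher (78.2, 87.1 and 93.7 CPM in G2-S4, against 25.98, 26.6 and 19.6 CPM in G2-S3, log2 fold change 1.84 ± 0.12, adjusted p = 2.68e-05), against the lower SWEET3a above and a lower SWEET16 (log2 fold change -1.36 ± 0.16, adjusted p = 0.000329). The phloem loader SUT1 was not called (743, 755 and 721 CPM in G2-S4, against 788, 801 and 693 CPM in G2-S3). Starch synthesis had 4 higher (2 without replicate 1 or 3 of G2-S3) and 6 lower of 15. Soluble starch synthase 1 was lower with 59.2, 57.8 and 62.6 CPM in G2-S4, against 125, 123 and 110.0 CPM in G2-S3 (log2 fold change -0.99 ± 0.09, adjusted p = 0.000111), and large subunit 1 of ADP-glucose pyrophosphorylase, which makes the building block of starch, was higher with 526, 693 and 958 CPM in G2-S4, against 152, 259 and 43.1 CPM in G2-S3 (log2 fold change 2.26 ± 0.53, adjusted p = 0.00943, and 2.90 with adjusted p = 0.0038 without replicate 2 of G2-S3). Starch breakdown had 4 higher and 4 lower (7 without replicate 3 of G2-S3) of 21, with 38.1% called beside 37.8% over all names. Alpha-amylase type A isozyme, which cuts starch chains, had 103, 120.2 and 153 CPM in G2-S4, against 45.5, 47.7 and 41.7 CPM in G2-S3 (log2 fold change 1.48 ± 0.14, adjusted p = 0.000109).

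Names of the leaf surface and the cell wall moved both ways. Waxes and lipid transfer had 17 lower and 8 higher of 48 (median -0.12). Fatty acyl-CoA reductase 2, which makes fatty alcohols for protective coats, was lower, with 0.0431, 0 and 0.0411 CPM in G2-S4, against 42.1, 38.0 and 13.7 CPM in G2-S3 (adjusted p = 9.46e-05). The lipid-transfer protein DIR1 was higher with 62.2, 146 and 191 CPM in G2-S4, against 20.4, 21.3 and 15.8 CPM in G2-S3 (log2 fold change 2.79 ± 0.35, adjusted p = 0.000396). The epidermal markers, mostly 3-ketoacyl-CoA synthases of wax synthesis, had 5 of 10 tested names lower and 1 higher and summed to 222.4 to 250.8 CPM in G2-S4 and 310.5 to 334.7 CPM in G2-S3. Cellulose and xylan synthesis had 7 higher (4 without replicate 2 of G2-S4 or replicate 1 or 3 of G2-S3) and 10 lower (4 without replicate 1 or 2 of G2-S4 and 6 without replicate 1 or 2 of G2-S3) of 31. Cellulose synthase A catalytic subunit 6 was lower (2.11, 1.999 and 3.91 CPM in G2-S4, against 11.7, 13.9 and 7.79 CPM in G2-S3, log2 fold change -2.05 ± 0.41, adjusted p = 0.00444). Expansins and xyloglucan enzymes, which loosen walls, had 5 higher and 3 lower of 12. The growth-related wall protein EXORDIUM had 256, 327 and 420.1 CPM in G2-S4, against 51.5, 59.5 and 10.1 CPM in G2-S3 (log2 fold change 3.05 ± 0.53, adjusted p = 0.00217).

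Lignin and phenylpropanoid synthesis had 5 higher and 10 lower of 33 (median -0.05). Laccase-10, of a family that polymerises lignin, had 3.87, 3.02 and 3.83 CPM in G2-S4, against 73.7, 108 and 3.85 CPM in G2-S3. Only G2-S3 replicates 1 and 2 were high, and replicate 3 lay within the range of G2-S4 (log2 fold change -4.11 ± 0.92, adjusted p = 0.00779, and -3.44 with adjusted p = 0.0193 without replicate 2 of G2-S3). Tubulin alpha-1 chain, a building block of microtubules, was lower with 15.8, 14.1 and 25.8 CPM in G2-S4, against 76.7, 109 and 53.1 CPM in G2-S3 (log2 fold change -2.10 ± 0.32, adjusted p = 0.00113) and 19.9, 13.0 and 21.8 CPM in G2-CK. Probable cinnamyl alcohol dehydrogenase 5 was higher (667, 497 and 307 CPM in G2-S4, against 196, 267 and 150.2 CPM in G2-S3, log2 fold change 1.26 ± 0.30, adjusted p = 0.00963). Flavonoid synthesis had 4 higher and 3 lower of 22 (4 higher and 5 lower with no filter). Chalcone synthase C2, its entry enzyme, varied more within each dose than between them (207, 90.7 and 349.7 CPM in G2-S4, against 401, 384 and 78.6 CPM in G2-S3, log2 fold change -0.41 ± 0.77, adjusted p = 0.703), and flavonoid 3',5'-hydroxylase, which sets the colour of anthocyanins, was lower with 14.2, 18.3 and 26.3 CPM in G2-S4, against 62.2, 71.6 and 49.9 CPM in G2-S3 (log2 fold change -1.64 ± 0.22, adjusted p = 0.000602).

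Among regulators, NAC transcription factors, the plant family that holds several switches of senescence, had 15 of 27 higher and 12 not called (median 0.49; 1 without replicate 2 of G2-S3 lower). NAC domain-containing protein 79 had 176, 170.1 and 196 CPM in G2-S4, against 49.6, 68.5 and 45.5 CPM in G2-S3 (log2 fold change 1.73 ± 0.25, adjusted p = 0.000884), protein 71 103, 122 and 121 CPM in G2-S4, against 30.2, 36.7 and 43.3 CPM in G2-S3 (log2 fold change 1.65 ± 0.14, adjusted p = 7.36e-05) and NAC transcription factor 25 29.7, 32.8 and 26.04 CPM in G2-S4, against 5.19, 2.11 and 4.07 CPM in G2-S3 (log2 fold change 2.96 ± 0.27, adjusted p = 8.17e-05). In all 3 every G2-S4 library lay at more than 2 times the highest G2-S3 library. NAC domain-containing protein 82 was not called (log2 fold change -0.14 ± 0.07, adjusted p = 0.153). WRKY factors had 4 higher (2 without replicate 1 of G2-S3 and 7 without replicate 3 of G2-S3) and 4 lower of 29. In the basic helix-loop-helix family (6 higher and 6 lower of 32), bHLH96 had 483, 474 and 648 CPM in G2-S4, against 56.1, 199 and 22.2 CPM in G2-S3 and 0.615, 0.621 and 0.0428 CPM in G2-CK (log2 fold change 2.53 ± 0.66, adjusted p = 0.0152, and 2.27 with adjusted p = 0.0592 without replicate 1 of G2-S3 and 3.77 with adjusted p = 0.000619 without replicate 2 of G2-S3). PIF1, which represses greening genes in the dark in Arabidopsis, was lower with 15.2, 11.4 and 9.83 CPM in G2-S4, against 38.7, 51.3 and 41.0 CPM in G2-S3 (log2 fold change -1.85 ± 0.16, adjusted p = 7.53e-05).

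Hormone lists were mixed. Auxin names had 16 higher and 19 lower of 67, with the repressor IAA18 at 455, 505 and 502 CPM in G2-S4, against 237, 242 and 121 CPM in G2-S3 (log2 fold change 1.28 ± 0.22, adjusted p = 0.00206). Cytokinin and gibberellin names had 9 higher and 11 lower of 50. Gibberellin 2-beta-dioxygenase, which inactivates gibberellin, was higher (25.1, 21.3 and 34.8 CPM in G2-S4, against 5.45, 8.56 and 3.42 CPM in G2-S3, log2 fold change 2.22 ± 0.36, adjusted p = 0.00163). DELLA protein GAI1, a gibberellin repressor, was listed in no G2-S4 library and had 6.13, 7.13 and 5.82 CPM in G2-S3, with a mean at least 9.48-fold above the limit in G2-S4 (adjusted p = 2.68e-05). The DELLA protein DWARF8 was not called (log2 fold change -0.09 ± 0.12, adjusted p = 0.589). Jasmonate names had 4 higher (2 without replicate 2 of G2-S4 or replicate 1 of G2-S3) and 8 lower (3 without replicate 1 of G2-S4 and 5 without replicate 2 of G2-S4) of 32, with 37.5% called. Linoleate 9S-lipoxygenase 5, which oxidises fatty acids and is in the list by its family, not as a step of jasmonate synthesis, was lower with 19.98, 14.9 and 18.7 CPM in G2-S4, against 80.7, 78.3 and 58.6 CPM in G2-S3 (log2 fold change -2.02 ± 0.23, adjusted p = 0.00024). The repressor TIFY 11d was higher with 47.8, 62.7 and 65.3 CPM in G2-S4, against 9.86, 12.9 and 18.1 CPM in G2-S3 (log2 fold change 2.11 ± 0.27, adjusted p = 0.000518).

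Wall-associated receptor kinases, which sense the state of the cell wall, and cysteine-rich receptor-like kinases, a separate family taken into the same list, were mostly lower. Of 28 such names, 18 were lower, 2 higher and 8 not called (median -0.72; 1 without replicate 1, 2 or 3 of G2-S4 or replicate 1 or 2 of G2-S3 higher). Wall-associated receptor kinase 5, a sum of 51 unigenes, had 51.7, 56.8 and 47.2 CPM in G2-S4, against 99.4, 91.9 and 124 CPM in G2-S3 (log2 fold change -1.02 ± 0.12, adjusted p = 0.00033), and kinase 1 10.7, 12.1 and 12.8 CPM in G2-S4, against 28.2, 27.9 and 41.5 CPM in G2-S3 (log2 fold change -1.45 ± 0.16, adjusted p = 0.000241). Reads of such large families can be split between near-identical copies by the assembly, so a single name here is uncertain. Pathogenesis-related proteins had 12 higher and 4 lower of 41 (median 0.16; 8 without replicate 3 of G2-S3 lower). That is 39.0% called, beside 37.8% over all names, so the members below do not stand for the list. Pathogenesis-related protein 1, a secreted defence protein, had 70.5, 66.4 and 32.2 CPM in G2-S4, against 10.205, 10.04 and 13.2 CPM in G2-S3 (log2 fold change 2.34 ± 0.38, adjusted p = 0.00155). Glucan endo-1,3-beta-glucosidase 10 was lower with 3.27, 2.27 and 5.55 CPM in G2-S4, against 25.6, 23.2 and 20.8 CPM in G2-S3 (log2 fold change -2.64 ± 0.25, adjusted p = 0.000117).

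**Figure D4:**
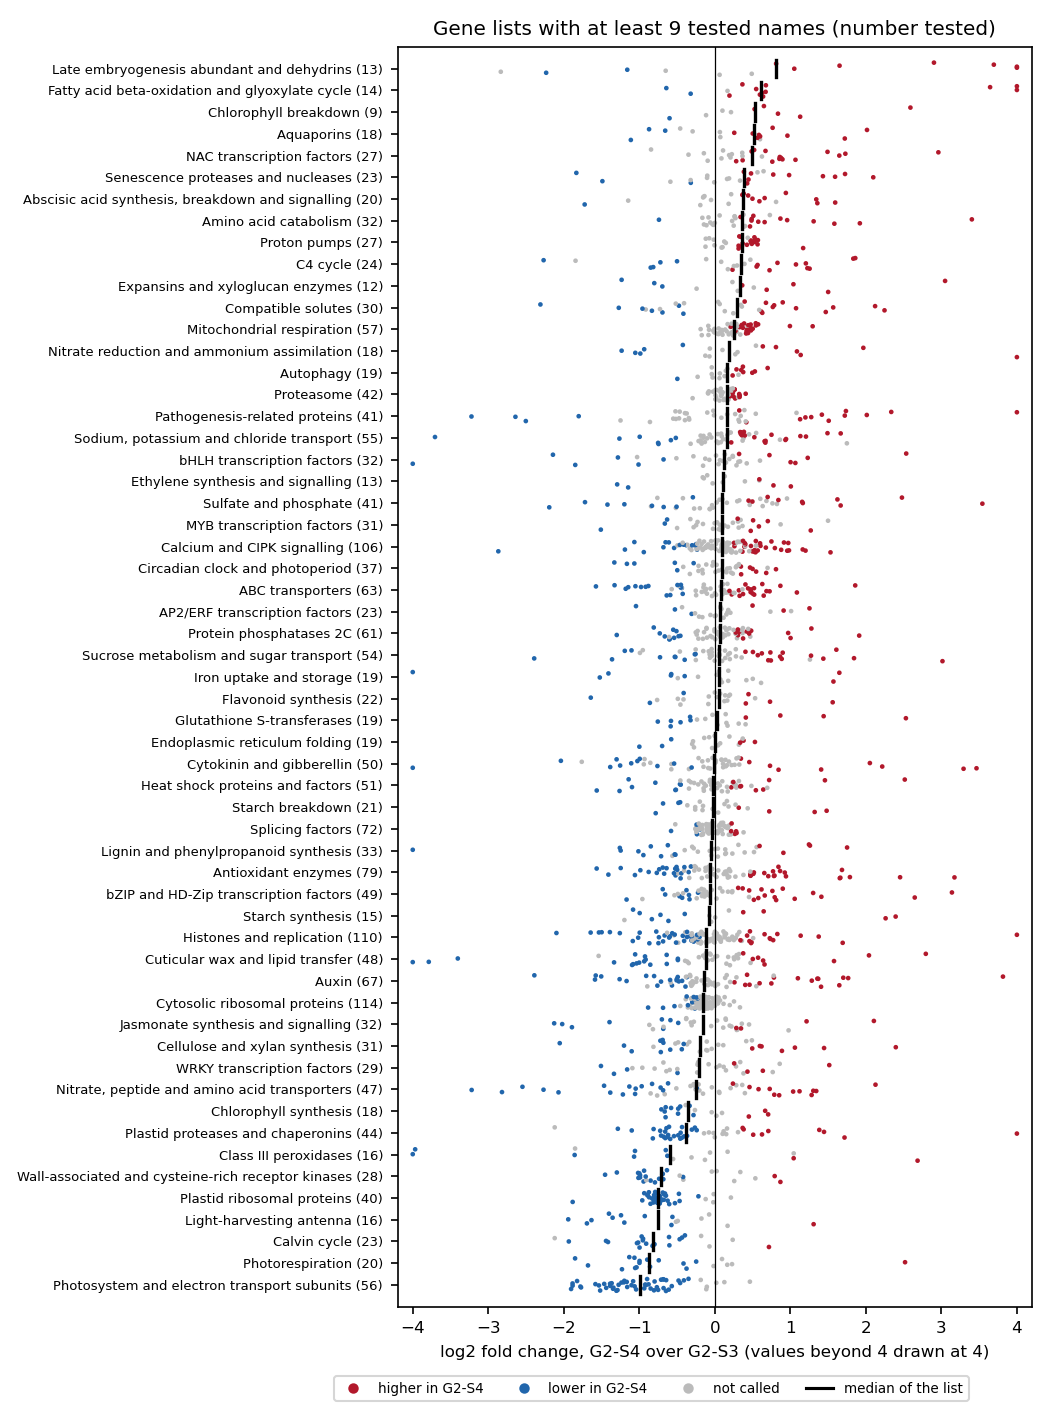
Log2 fold change of G2-S4 over G2-S3 for every tested member of each group of proteins with at least 9 tested names (points, red called higher, blue called lower, grey not called) and the median of each group (bar); values beyond 4 in size are drawn at the edge. The photosynthetic groups and the plastid ribosome lie to the left of 0, and the late embryogenesis abundant proteins have the highest median of the groups shown, 0.81.

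Set beside the control leaves, levels over the 3 doses took several forms. Delta-1-pyrroline-5-carboxylate synthase averaged 151 ± 16.9 CPM in G2-CK, 342 ± 80.2 CPM in G2-S3 and 1626 ± 114 CPM in G2-S4 (SD, n = 3 each). Rubisco small chain A averaged 3177 ± 282 CPM in G2-CK, 2123 ± 193 CPM in G2-S3 and 556 ± 44.3 CPM in G2-S4. Phosphoenolpyruvate carboxykinase (ATP) 1 averaged 24.2 ± 2.04 CPM in G2-CK, 380.1 ± 169 CPM in G2-S3 and 877 ± 108 CPM in G2-S4. STAY-GREEN averaged 141 ± 49.8 CPM in G2-CK, 91.1 ± 24.9 CPM in G2-S3 and 549 ± 165 CPM in G2-S4. No test was made against the controls here.

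**Figure D5:**
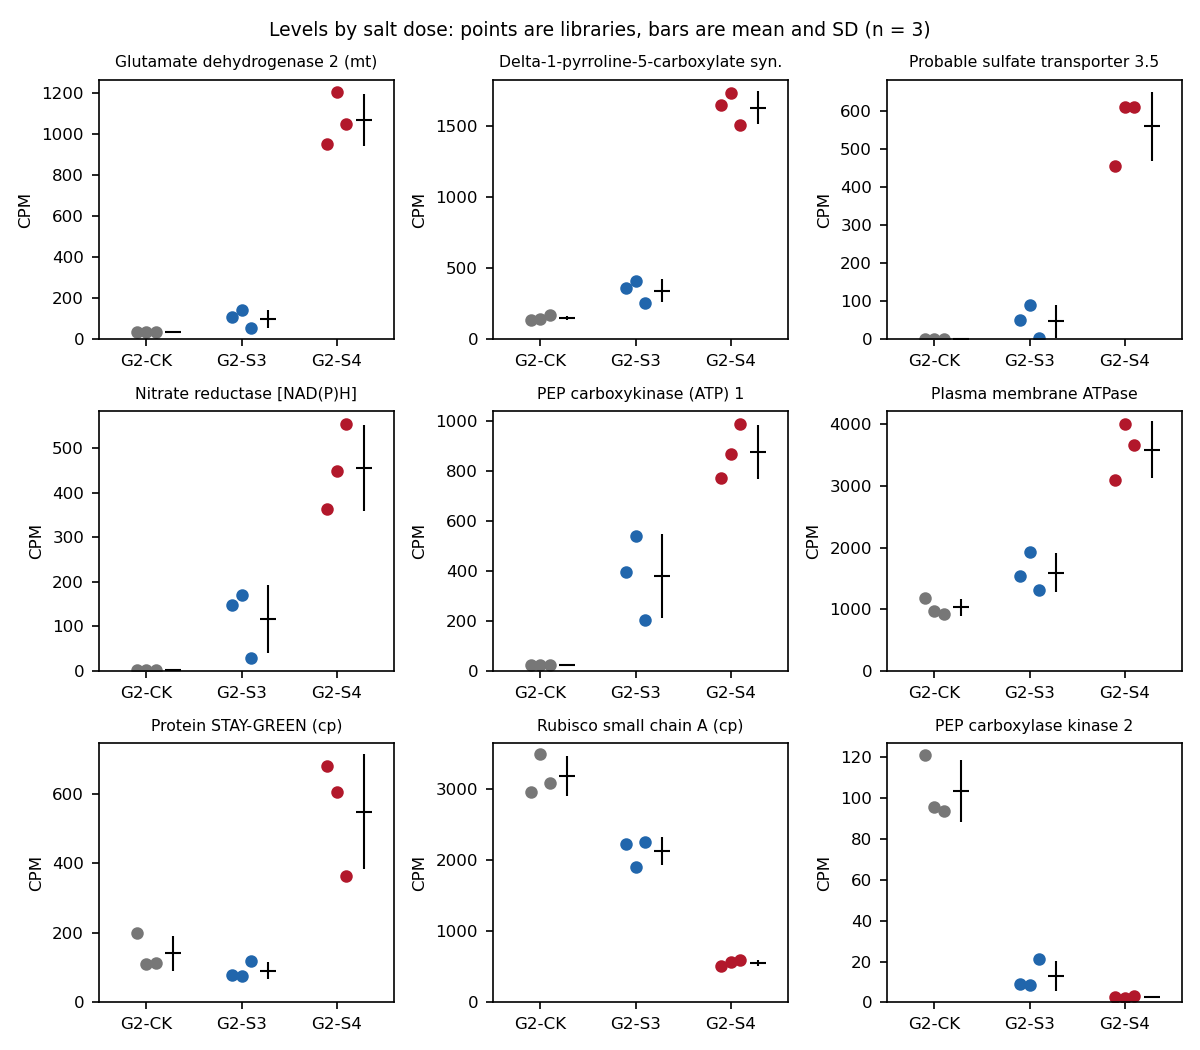
CPM per library in G2-CK, G2-S3 and G2-S4 for 9 of the names described, with mean and SD (n = 3) beside the points; sulfate transporter 3.5 was listed in no G2-CK library and is drawn at 0 there. Glutamate dehydrogenase 2 and delta-1-pyrroline-5-carboxylate synthase are highest in the 3 G2-S4 libraries, while Rubisco small chain A and phosphoenolpyruvate carboxylase kinase 2 are lowest in them.

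Among the names with the highest levels of all, metallothionein-like protein 3B, which binds copper and zinc, was lower with 3150.0, 2717 and 2466 CPM in G2-S4, against 5223, 6030.1 and 4022 CPM in G2-S3 (log2 fold change -0.87 ± 0.18, adjusted p = 0.00455). ClpC2, the general unfoldase of the plastid, had 4816, 4457 and 3551 CPM in G2-S4, against 3678, 3799 and 2888 CPM in G2-S3 and was not called (log2 fold change 0.31 ± 0.14, adjusted p = 0.106, and 0.43 with adjusted p = 0.0342 without replicate 3 of G2-S4). Protein TAR1, named for a yeast protein encoded within the ribosomal RNA repeat, was not called either (4086, 3923 and 5199 CPM in G2-S4, against 3530.3, 3687 and 3918 CPM in G2-S3, log2 fold change 0.25 ± 0.12, adjusted p = 0.123).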

How the data were processed

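Poly(A) RNA of 9 leaf libraries was sequenced and, by the paper's methods, assembled de novo with Trinity and clustered with Corset. Reads were mapped back and counted with RSEM. The expected counts deposited by the authors, per unigene and library, are listed only where expression exceeded 0.3 FPKM, and the labels also name CASAVA 1.8 and DESeq. The deposited FPKM values were used only for that limit.

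Expected counts were rounded after summing by protein name, with unlisted unigenes at 0 and unigenes of human description left out. All 9 libraries were fitted with edgeR 4.0.16 (R 4.3.3) in its quasi-likelihood model with TMM factors, and G2-S4 was contrasted with G2-S3. Names with at least 5 CPM in at least 3 of 9 libraries were tested, and p-values were adjusted by Benjamini-Hochberg over all of them, with 0.05 as threshold. Adjusted p values are from this test on all 9 libraries, except where DESeq2, the replicate block or a left-out library is named with the value. Standard errors derive from the F statistic of this test.

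The members, the 58 lists and the rule for named proteins were chosen with earlier results of these data known, and list patterns were adjusted after the protein names and first counts were seen. Proteins were named from the 10 largest increases and decreases among called names averaging 20 CPM or more without overlap, the 3 largest changes each way and the 3 highest levels of each list, every Calvin cycle, C4 cycle and chlorophyll breakdown name, and the 5 highest levels overall. Not every protein that met this rule is described in the text. Histones, splicing and the other secondary lists are given with the closing observations. Alternatives covered normalization, filters, unlisted values, DESeq2 1.42.0, single libraries and a replicate block. Scripts were tested on simulated counts. Reads of near-identical copies may be divided between unigenes, and no genome was used here.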

Additional observations from a re-analysis of the deposited data

Results flagged for a closer look

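Unigenes whose nucleotide description names human sequence were outside every comparison above, and their reads were far more frequent in the G2-S4 libraries than elsewhere. They took 0.138%, 0.0814% and 0.0445% of the listed reads in G2-S4 replicates 1 to 3, on 1161, 1032 and 805 unigenes, against at most 0.00021% in any G2-S3 or G2-CK library, on 4 to 11 unigenes. The levels are signal in unigenes left out of the sums, and the source of these reads was not tested. A further 339 unigenes whose protein hit is a mammal were listed only in G2-S4, with 0.0181%, 0.0131% and 0.0112% of the listed reads there, and they remained in the sums.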

How the results depend on the processing

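Of 487 single proteins followed, none changed direction with a call under an alternative. Of the 3710 called names, 2 had a fold change of opposite sign under some alternative, whether or not they were called there. The balance of several lists did turn. Of 3710 names called, 2208 were called under each of the alternatives tried, and 2350 with each single library left out. Over these left-out libraries the count of calls ran from 2759 to 3473, the higher names from 1264 to 1599 and the lower names from 1487 to 1874. Summing by KEGG orthology entry in place of protein name gave 1145 calls among 3171 groups tested (553 higher and 592 lower), and requiring an absolute log2 fold change of at least 1 left 759 calls (377 higher and 382 lower). DESeq2 called 4031 names, of which 3692 were shared, and the fit on the 6 libraries alone called 3095. Of 116 counts of higher or lower list members, 11 moved by over 1.5 times with no filter, 9 with edgeR's own filter, 11 with the 6 libraries alone and 5 with DESeq2. Of the 58 lists, 13 had more higher than lower names, or the reverse, turned round by an alternative, 6 of them with every library kept. With no filter, which tests more names, 10 cytosolic ribosomal proteins were higher and 5 lower, and 13 cytokinin and gibberellin names were higher and 11 lower. With no filter and with edgeR's own filter, flavonoid synthesis had 4 higher and 5 lower, glutathione S-transferases 6 higher and 5 lower, and 2 NAC factors were lower. With the 6 libraries alone 8 cytokinin and gibberellin names were higher and 7 lower. Antioxidant enzymes had 22 higher and 21 lower with DESeq2. Single left-out libraries turned the lists of ABC transporters, protein phosphatases 2C, splicing, clock, ethylene and endoplasmic reticulum folding names, and also jasmonate (5 higher and 3 lower) and cellulose and xylan synthesis (7 higher and 4 lower), both without replicate 1 of G2-S4.

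The replicate numbers are shared by the 3 doses. By the study's methods the pots stood in randomized blocks, but no source used here ties a replicate number to a block. Same-numbered deviations from the group means correlated at 0.01, -0.189 and -0.202, and no G2-S4 library correlated best with the G2-S3 library of its own number, so the numbers were not taken to pair the samples. With the replicate block 3107 names were called (1461 higher and 1646 lower), of which 3067 were among the 3710, and of 487 single proteins followed 27 lost and 5 gained their call. The gains included HV90 (1.32, adjusted p = 0.0322) and cytosolic ascorbate peroxidase 2 (0.50, adjusted p = 0.0389). Under the block 12 of the 116 list counts moved by over 1.5 times, among them 5 proteasome names higher and 4 cytosolic ribosomal proteins lower. The balance turned for antioxidant enzymes (21 higher and 20 lower) and endoplasmic reticulum folding (3 higher and 4 lower). Leaving out the mammal-hit unigenes, an alternative chosen after seeing the data, gave 3509 calls. Values below 0.3 FPKM were absent from the files, 24.29% of unigene and library pairs, and a unigene at the limit stood for a median of 7.51 reads. Placing unlisted unigenes at that limit gave 3726 calls, 3590 of them shared. Names unlisted in all libraries of a dose are therefore known only as bounds. 1 clone, 1 leaf position and 3 replicates per dose limit all results to these plants.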

Other observations

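Other groups of proteins moved both ways or little. The share called was 35.3% for heat shock, 36.8% for endoplasmic reticulum folding, 38.5% for ethylene and 35.1% for clock names. Over all names 37.8% were called. Of 51 heat shock proteins and factors, 9 were higher and 9 lower. With libraries left out these counts were 4 without replicate 1 of G2-S4 or replicate 2 of G2-S3, 3 without replicate 2 of G2-S4 and 5 without replicate 1 of G2-S3 for the higher and 5 without replicate 1 or 3 of G2-S4 or replicate 3 of G2-S3 for the lower names. Heat stress transcription factor C-2b, a regulator of the heat stress factor family, had 5.68, 7.95 and 8.10 CPM in G2-S4, against 1.03, 1.602 and 1.16 CPM in G2-S3 (log2 fold change 2.52 ± 0.24, adjusted p = 0.000115). The folding proteins of the endoplasmic reticulum had 4 higher and 3 lower of 19 (2 without replicate 1 of G2-S3 higher, and 1 without replicate 2 of G2-S4 lower). In the homeodomain and bZIP families 16 of 49 were higher and 9 lower (4 without replicate 1 or 2 of G2-S4 lower). HOX24, a homeodomain protein of rice induced by drought, had 14.5, 24.6 and 12.9 CPM in G2-S4, against 2.401, 1.94 and 3.94 CPM in G2-S3 (log2 fold change 2.65 ± 0.31, adjusted p = 0.000317), with no overlap between the doses. MYB factors had 6 higher and 3 lower of 31 (3 without replicate 2 of G2-S4 higher, and 5 without replicate 3 of G2-S3 lower). AP2/ERF factors had 3 higher and 3 lower of 23 (1 without replicate 2 or 3 of G2-S4 lower). This count depends on the filter. It was 9 higher and 5 lower of 50 with edgeR's own filter, and 9 higher and 5 lower of 60 with no filter. Ethylene names had 3 higher and 2 lower of 13 (1 without replicate 1 of G2-S4 or replicate 2 of G2-S3 higher, and 1 without replicate 1 or 2 of G2-S4 or replicate 3 of G2-S3 lower). Clock and photoperiod names had 7 higher and 6 lower of 37 (3 without replicate 1 of G2-S3 lower).

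Among calcium and CIPK signalling names, 27 were higher and 15 lower of 106 (7 without replicate 1 or 2 of G2-S4 and 9 without replicate 3 of G2-S4 or replicate 1 of G2-S3 lower). That is 39.6% called, beside 37.8% over all names. CBL-interacting protein kinase 14, of the kinase family that regulates ion transporters, had 40.4, 35.8 and 29.2 CPM in G2-S4, against 11.4, 17.5 and 7.53 CPM in G2-S3 (log2 fold change 1.53 ± 0.27, adjusted p = 0.00236). Protein phosphatases 2C had 13 higher and 11 lower of 61 (8 without replicate 1 of G2-S4, 7 without replicate 2 of G2-S4 and 6 without replicate 1 of G2-S3 higher), with 39.3% called. ABC transporters, which move hormones and toxins, had 20 higher and 15 lower of 63 (9 without replicate 1 of G2-S4 or replicate 1 of G2-S3 and 12 without replicate 2 of G2-S4 higher). Histones, replication and cytoskeleton names had 15 higher and 32 lower of 110 (21 without replicate 1 of G2-S4 lower). Splicing factors had 5 higher and 4 lower of 72 (1 without replicate 1 of G2-S4 or replicate 2 of G2-S3 and 3 without replicate 2 of G2-S4 or replicate 1 of G2-S3 higher, and 1 without replicate 1 of G2-S4 and 2 without replicate 3 of G2-S4 or replicate 2 or 3 of G2-S3 lower), where 17.8% of all names were higher and 19.9% lower. Histone H1, a linker of chromatin, had 1197, 1271 and 1363 CPM in G2-S4, against 664, 643 and 992 CPM in G2-S3 (log2 fold change 0.74 ± 0.18, adjusted p = 0.0104).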
